A study of Mus musculus with 45 samples.

Results

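The comparison described here sets 3 libraries of cytoplasmic RNA from Kit+ cells of VavCre Rps19flox/+ fetal livers against 3 libraries from Kit+ cells of Rps19flox/+ fetal livers, 6 of the 45 libraries in the series, chosen by their titles. All cells came from fetal mouse livers at stage E15.5. VavCre Rps19flox/+ fetuses carried 1 floxed Rps19 allele and the VavCre transgene, whose Vav promoter drives Cre recombinase in blood cells, so that 1 copy of Rps19 is open to deletion there. Rps19flox/+ controls carried the same single floxed allele without VavCre, and both came from VavCre females mated with males homozygous for the floxed gene. Liver suspensions of both genotypes had been treated with emetine, an inhibitor that holds ribosomes on mRNA, at 25 µg/mL for 15 min, and Kit+ cells were then taken with magnetic beads. Equal numbers of cells from fetuses of 1 genotype were pooled, so each library is a pool of animals, and the pool labels show that the same lysates also gave the polysome libraries. Rpl5flox/+ livers with and without VavCre, and Ter119+ cells taken from what the Kit beads left behind, were processed in the same way and serve below to show where the Rps19 comparison differs. No group carried VavCre without a floxed allele, so an effect of Cre itself and an effect of the lost Rps19 copy cannot be told apart, and the floxed allele is shared by both groups. Whether a pool came from 1 or several litters is not given in the sources used here, so p-values measure the spread between pools.

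RPS19 is a protein of the small (40S) ribosomal subunit and is needed for the late cleavages of the precursor of 18S ribosomal RNA. Loss of 1 copy of RPS19 is a known cause of Diamond-Blackfan anaemia in humans, an inherited failure of red cell production. When ribosome assembly stalls, ribosomal proteins of the large subunit can bind MDM2, the ubiquitin ligase that keeps p53 low, and p53 then switches on genes of arrest, cell death and repair. Kit, the receptor of stem cell factor, marks stem cells, multipotent and lineage-committed progenitors and early erythroblasts of the fetal liver, so Kit+ cells are a mixture of these.

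Sequences near the start sites of 4 genes are given first, as examples from the p53, granule and B-lymphoid lists, and these 4 were chosen for holding a match. They are Cdkn1a, the p53 target that encodes the cell cycle inhibitor p21, which had the highest change of all, Elane and Prtn3, neighbouring genes that encode granule proteases of neutrophil precursors, and Cd79a, which encodes a signalling chain of the B cell receptor and its precursor. Each is 1 window of 300 bases from RefSeq on the plus strand of GRCm38.p6, printed 5′ to 3′, with the match in capitals.
Cdkn1a, chr17:29090729-29091028, capitals mark a full p53 site: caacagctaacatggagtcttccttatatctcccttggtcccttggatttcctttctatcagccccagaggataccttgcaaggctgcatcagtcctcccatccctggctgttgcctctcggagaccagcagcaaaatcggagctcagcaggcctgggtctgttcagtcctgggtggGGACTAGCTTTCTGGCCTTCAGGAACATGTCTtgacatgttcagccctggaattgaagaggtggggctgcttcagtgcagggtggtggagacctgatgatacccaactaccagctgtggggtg
Elane, chr10:79886062-79886361, capitals mark AGGAAGT: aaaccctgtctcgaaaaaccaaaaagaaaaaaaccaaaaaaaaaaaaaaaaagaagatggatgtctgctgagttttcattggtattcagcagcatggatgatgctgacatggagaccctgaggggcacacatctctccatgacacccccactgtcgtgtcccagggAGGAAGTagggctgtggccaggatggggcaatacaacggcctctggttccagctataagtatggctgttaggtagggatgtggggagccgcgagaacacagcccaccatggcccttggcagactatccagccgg
Prtn3, chr10:79879417-79879716, capitals mark AGGAAGT: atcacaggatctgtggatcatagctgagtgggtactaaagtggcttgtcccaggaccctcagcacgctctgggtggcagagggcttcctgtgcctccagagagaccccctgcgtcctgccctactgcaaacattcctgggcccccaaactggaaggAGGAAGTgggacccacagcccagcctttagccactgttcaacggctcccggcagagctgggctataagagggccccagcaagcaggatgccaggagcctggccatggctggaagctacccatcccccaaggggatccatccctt
Cd79a, chr7:24897247-24897546, capitals mark AGGAAGT: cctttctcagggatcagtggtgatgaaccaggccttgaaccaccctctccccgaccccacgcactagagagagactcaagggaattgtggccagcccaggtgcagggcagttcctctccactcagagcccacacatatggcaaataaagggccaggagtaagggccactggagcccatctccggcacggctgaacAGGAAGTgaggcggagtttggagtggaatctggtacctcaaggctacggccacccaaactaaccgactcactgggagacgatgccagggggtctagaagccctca

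The capitals in Cdkn1a run from position 178 to 209 of the window, which is -73 to -42 from the annotated start, and hold a pair of p53 half-sites with the spacer between them. AGGAAGT is a core sequence of ETS factors such as PU.1, the product of Spi1, and lies at positions 167 to 173 in Elane, 157 to 163 in Prtn3 and 196 to 202 in Cd79a. Both strands were searched in the 8794 tested genes that have a promoter in the table. A full p53 site was found in 4 of them (0.045%), and among the 49 listed p53 targets with a promoter it was found in Cdkn1a alone. A p53 half-site, which is also part of every full site, was found in 14 of those 49 (28.571%). It occurred in 6 of 32 genes of the neutrophil granule lists (18.75%) and in 8.145% of the genes called higher. The share among all tested genes with a promoter was 8.096%. The granule lists also hold granulocyte precursor and other neutrophil genes. AGGAAGT was found in 8 of 32 genes of the granule lists (25.0%) and 7 of 17 B-lymphoid genes (41.176%), against 10.553% of all tested genes. TTGCNNAA, the core of sites for C/EBP factors, was found in 10 of the 32 genes of the granule lists (31.25%) and 4 of the 17 B-lymphoid genes (23.529%). It was found in 6 of the 49 p53 targets (12.245%), and in 10.064% of all tested genes. These matches describe the letters of the windows and show no binding.

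The 3 VavCre libraries held 70.1, 49.4 and 32.9 M reads, against 40.2, 41.7 and 29.3 M in the 3 controls. Levels below are normalised counts, which are reads divided by the size factor of their library. They are not divided by gene length and are compared only between libraries. Replicate 1 of the VavCre libraries stood apart: a chi-square of its reads over genes, per degree of freedom, was 196 and 131 against the other VavCre libraries, which gave 29.3 between themselves, and 29.1 to 42.9 among the controls. Genes of the mitochondrial genome took 1.475% of its reads, against 3.07% and 3.82% in the other VavCre libraries and 3.21% to 3.44% in the controls. Globin genes took 0.957% to 1.705% of the reads of the VavCre libraries, against 1.78% to 3.06% in the controls. Genes of the Y chromosome had no reads in VavCre replicate 2, so the pools differed in the sex of their fetuses. In a principal component analysis of the 12 Kit+ cytoplasm libraries, the first component held 57.48% of the variance and put the VavCre Rps19flox/+ libraries at its high end, with VavCre Rpl5flox/+ at its low end and both control groups between them.

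Rps19, the targeted gene, was examined first as a check of the labels. It had 14495, 12574 and 11750 in the VavCre libraries, against 20144, 16201 and 17767 in the controls, and no VavCre library reached the lowest control. The fitted difference was -0.48 on the log2 scale (SE 0.11, adjusted p = 0.00191), and the mean was 1.39-fold lower. In the VavCre Rpl5flox/+ line the same gene was higher by 0.39 (adjusted p = 0.0106). Tsr2, which encodes a chaperone that delivers RPS26 to the assembling small subunit, had 702, 723 and 671 in the VavCre libraries, against 595, 609 and 606 in the controls (log2 change 0.21, adjusted p = 0.0441). The call of Tsr2 was lost when any 1 of the 6 libraries was left out, at adjusted p of 0.0509 to 0.133 by limma. Rpl5, a protein of the large subunit that takes part in the hold on MDM2, had 491, 748 and 691 in the VavCre libraries, against 1042, 986 and 866 in the controls (log2 change -0.59, adjusted p = 0.00476), and the gene overlaps a neighbour in the annotation. Trp53, the gene of p53, was higher in every VavCre library, with 4749, 3976 and 4172 in the VavCre libraries, against 1885, 2439 and 2195 in the controls (log2 change 0.98, SE 0.12, adjusted p = 2.14e-05). In the Rpl5 line Trp53 differed by -0.03 (adjusted p = 0.878), and the difference between the lines was 1.01 (adjusted p = 0.000312). Mdm2, the p53 target that encodes its ubiquitin ligase, had 470.0, 589 and 755 in the VavCre libraries, against 369.6, 402 and 445 in the controls (log2 change 0.54, adjusted p = 0.00502).

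Across the transcriptome, 5859 of 10908 genes tested (53.7%) differed at an adjusted p under 0.05, of which 3012 were higher (27.6%) and 2847 lower (26.1%) in VavCre Rps19flox/+ cells. In 6645 genes (60.9%), every library of one group lay outside the range of the other. Calls were thus common, and each list below is read by its direction and size against these shares. Large changes were mostly losses: 404 genes rose and 859 fell by at least 1 on the log2 scale, while at 3 or more the numbers were 17 and 8. Genes with few reads fell more often, with 188 higher and 530 lower of 1985 genes at mean counts of 10 to 50, and 1316 higher and 772 lower of 3364 at 500 to 5000. The most abundant genes also fell more often, with 53 higher and 107 lower of 265 at mean counts of 5000 or more. Fitted changes are on the deposited log2 scale, which understates the change of genes with few reads, so folds of the mean normalised counts are also given where both groups have reads. Leaving out VavCre replicate 1 left 2660 of the higher and 2361 of the lower genes called, and no called gene changed direction.

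**Figure D1:**
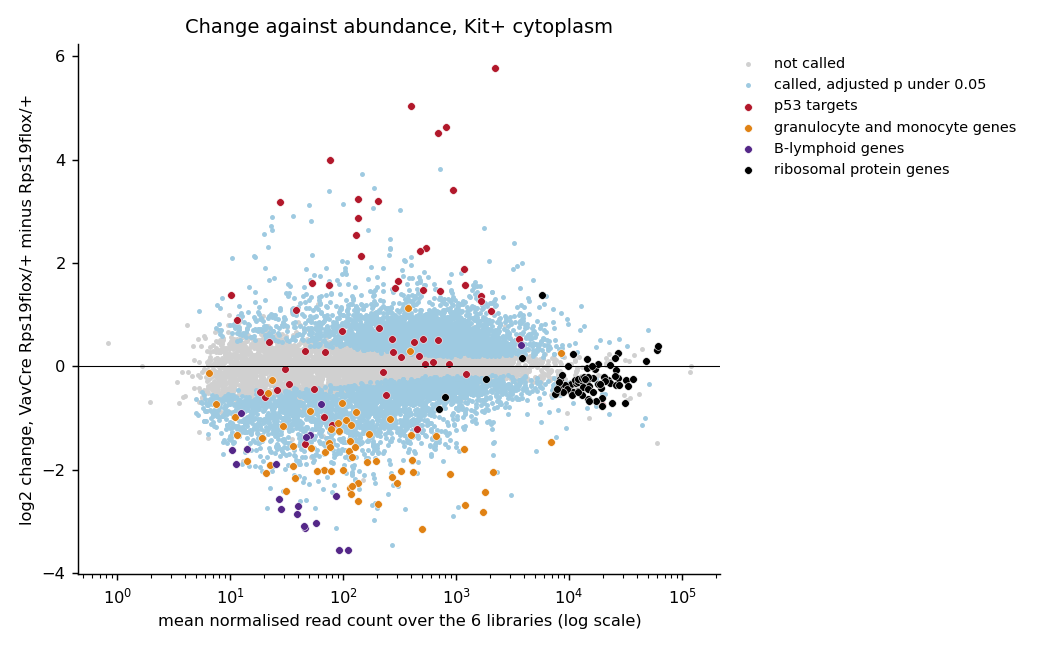
Log2 change between VavCre Rps19flox/+ and Rps19flox/+ Kit+ cytoplasm (vertical axis) against mean normalised count (horizontal axis, log scale) for the 10908 genes tested, each a point. Called genes (3012 higher, 2847 lower) are light blue in both directions, and genes not called are grey. Larger points mark members of lists: p53 targets (red), granulocyte and monocyte genes (orange), B-lymphoid genes (purple) and ribosomal protein genes (black). Cdkn1a lies highest at 5.77, and B-lymphoid and granule genes form the lower edge.

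Targets of p53 rose in all 3 lists made of them. Of 18 tested p53 targets of arrest and feedback, 10 rose and 4 fell. Of 19 targets of cell death, 14 rose and 1 fell, and of 21 targets of repair and metabolism, 11 rose and 2 fell. The median changes of these lists were 0.503, 1.081 and 0.752, against 0.011 for all genes tested. Cdkn1a, which halts the cycle through cyclin-dependent kinases, had 5057, 3719 and 4218 in the VavCre libraries, against 71.5, 68.7 and 54.4 in the controls. The lowest VavCre library was thus far above the highest control, the mean was 66.8-fold higher, and the fitted change was 5.77 (SE 0.14, adjusted p = 4.69e-12). Zmat3, an RNA-binding protein of p53 tumour suppression, had 1691, 1455 and 1561 in the VavCre libraries, against 45.6, 50.2 and 51.8 in the controls (log2 change 4.64, SE 0.14, adjusted p = 5.51e-11). Psrc1, a microtubule-associated protein induced by p53, had 2022, 1508 and 1675 in the VavCre libraries, against 144, 161 and 138 in the controls (log2 change 3.42, SE 0.13, adjusted p = 4.65e-10). Sesn2, a stress sensor that restrains mTORC1, had 1083, 739.7 and 927 in the VavCre libraries, against 151, 204 and 165 in the controls (log2 change 2.30, SE 0.17, adjusted p = 4.5e-07), and Gtse1, a G2/M protein that exports p53 from the nucleus, rose 3.05-fold (log2 change 1.58, adjusted p = 1e-06). None of these genes had an overlap between the groups. Btg1, an antiproliferative gene on the same list, went the other way, with 303, 221 and 267 in the VavCre libraries, against 677, 603 and 605 in the controls (log2 change -1.22, SE 0.12, adjusted p = 3.16e-06). Ccng1 and Plk2, p53 targets chosen after their values were seen, rose 4.02-fold and 7.36-fold, and Ccng1 was uneven among the VavCre libraries, with 1070, 2409 and 2162.

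Targets that act in cell death rose as well. Phlda3, which blocks AKT at the membrane, had 1623, 1140 and 1245 in the VavCre libraries, against 42.2, 45.8 and 43.8 in the controls (log2 change 4.52, SE 0.16, adjusted p = 2.85e-10). Eda2r, a receptor of the TNF family, had 115, 154 and 187 in the VavCre libraries, against 2.16, 1.11 and 0 in the controls, with no reads in the third control (log2 change 4.00, adjusted p = 6.36e-08). Tnfrsf10b, the mouse TRAIL death receptor, had 292, 216 and 257 in the VavCre libraries, against 10.6, 16.9 and 19.5 in the controls (log2 change 3.24, SE 0.19, adjusted p = 6.64e-08). All 3 genes were low in the controls and higher in every VavCre library. Bax, the pore former of mitochondrial apoptosis, was already abundant in the controls and had 3125, 2518 and 2692 in the VavCre libraries, against 1273, 1256 and 1376 in the controls (log2 change 1.08, SE 0.08, adjusted p = 6.58e-07). Ei24, a p53-induced protein of the endoplasmic reticulum, rose 2.43-fold, and Dcxr, a carbonyl reductase, rose 5.42-fold. Bbc3, which encodes the BH3 protein PUMA, had 548, 378 and 483 in the VavCre libraries, against 128, 138 and 148 in the controls (log2 change 1.65, SE 0.21, adjusted p = 3.26e-05). In the wider BCL2 family, 7 of 12 tested genes rose and 1 fell, with a median of 0.462. The 1 that fell, Mcl1, changed by -0.17 and lost its call without VavCre replicate 1 or 2 or any 1 control (adjusted p = 0.0738 to 0.154 by limma), while Bcl2 was called lower without VavCre replicate 2 (adjusted p = 0.0475) or control replicate 3 (0.0155).

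Among targets of repair and metabolism the largest rise was that of Dglucy, a D-glutamate cyclase, which had 948, 679 and 727 in the VavCre libraries, against 15.8, 12.4 and 6.72 in the controls (log2 change 5.04, SE 0.18, adjusted p = 3.94e-10). Zfp365, a zinc finger gene linked to replication stress, had 45.2, 59.0 and 60.2 in the VavCre libraries and no reads in the 3 controls, which makes it at least 70.0-fold higher when each control is set to a floor of 3 reads. Ddit4, an inhibitor of mTORC1, had 455, 308 and 364 in the VavCre libraries, against 36.2, 21.6 and 27.8 in the controls (log2 change 3.20, SE 0.20, adjusted p = 1.02e-07). No control library held more than 36.2 counts of any of these 3 genes. Cpt1c, a carnitine palmitoyltransferase, rose 11.1-fold, Slc19a2, the thiamine transporter, 5.04-fold, and Aldh4a1, of proline breakdown, 2.91-fold.

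**Figure D2:**
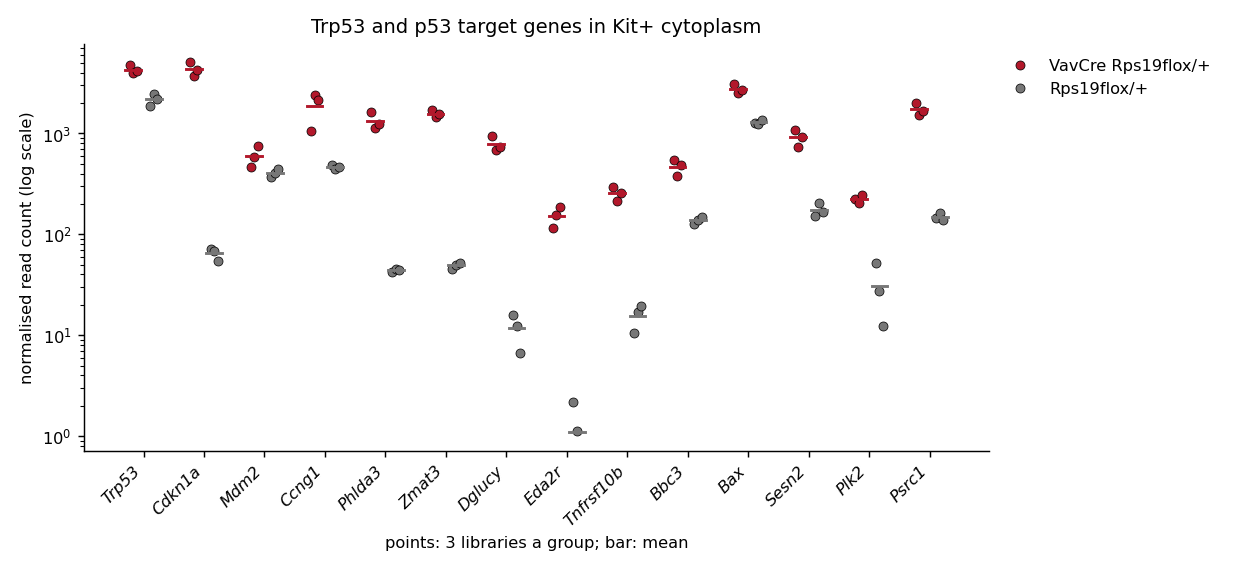
Normalised counts (log scale) of p53 pathway genes in each library, VavCre Rps19flox/+ libraries left of Rps19flox/+ libraries, each point 1 library and each bar a group mean. The 3 VavCre Cdkn1a points lie between 3719 and 5057, and the 3 controls between 54.4 and 71.5. A library with no reads is not drawn on the log axis, which applies to 1 Eda2r control.

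The 15 genes with the largest rise included several outside these lists. C2cd4a, whose product is a nuclear protein known from inflammation and pancreatic islets, had 1420, 1205 and 1407 in the VavCre libraries, against 86.1, 86.5 and 73.3 in the controls (log2 change 3.81, SE 0.17, adjusted p = 4.58e-09). Inka2, an inhibitor of the kinase PAK4, had 329, 239.9 and 270.2 in the VavCre libraries, against 11.3, 2.89 and 18.6 in the controls, and Ano1, a calcium-activated chloride channel, had 304, 345 and 417 in the VavCre libraries, against 15.8, 32.2 and 15.0 in the controls. Padi3, a peptidylarginine deiminase, had 242, 168 and 155 in the VavCre libraries, against 5.997, 12.9 and 11.8 in the controls, and Cd80, a costimulatory ligand of T cells, had 96.7, 91.7 and 104 in the VavCre libraries, against 1.92, 2.00 and 2.56 in the controls. All 5 were above every control in every VavCre library. The Rpl5 line gave changes of 3.81 for C2cd4a, 3.42 for Inka2, 2.50 for Padi3 and 3.03 for Cd80, and a smaller one of 1.42 for Ano1, whose difference between the lines was called (2.03, adjusted p = 0.000284). Gm28036, a predicted gene with no position in the annotation used, had 62.5, 135 and 240.4 in the VavCre libraries, against 0.959, 10.9 and 0.640 in the controls, an uneven set.

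Ribosomal protein mRNAs were modestly lower, and the change covered both subunits. Of 31 tested proteins of the small subunit, 25 fell and 1 rose, with a median of -0.321, and of 47 of the large subunit, 26 fell and 4 rose, with a median of -0.253. Rps12 had 24120, 24265 and 22427 in the VavCre libraries, against 42585, 33888 and 39335 in the controls (log2 change -0.70, SE 0.11, adjusted p = 0.000212), and Rps20 was 1.56-fold lower, Rps3a1 1.62-fold and Rps24 1.54-fold. All 4 were lower in every VavCre library than in any control. In the large subunit, Rpl17 had 13162, 13395 and 13007 in the VavCre libraries, against 23544, 19316 and 20629 in the controls (log2 change -0.68, adjusted p = 0.000179) and Rpl23, 1 of the proteins that can bind MDM2, had 11320, 11738 and 11107 in the VavCre libraries, against 20471, 16374 and 18011 in the controls (log2 change -0.68, adjusted p = 0.000183). A few members went the other way. Rpl10 had 8703, 8125 and 7974 in the VavCre libraries, against 2661, 3419 and 3418 in the controls (log2 change 1.39, SE 0.13, adjusted p = 3.63e-06), the largest change of any ribosomal protein gene on the list, and Rps2, Rplp0 and Rack1, a scaffold of the small subunit, rose by 0.33, 0.39 and 0.40. Genes of ribosomal proteins have many processed copies in the genome, and how reads shared with those copies were counted is not given in the sources used here. The small-subunit count rests in part on control replicate 1, without which 12 of 31 fell and 1 rose, at a median of -0.27. Without VavCre replicate 1 the counts of those that fell were 26 and 31.

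Genes that build ribosomes moved in the opposite direction. Of 39 tested assembly factors of the small subunit, 21 rose and 4 fell (median 0.37), and of 44 of the large subunit, 24 rose and 3 fell (median 0.332). Tbl3, a protein of the small-subunit processome, had 1530, 1235 and 1292 in the VavCre libraries, against 448, 536 and 506 in the controls (log2 change 1.42, SE 0.11, adjusted p = 5.57e-07). Utp4, of the same complex, rose 2.10-fold, Nat10, the acetyltransferase of 18S rRNA, 2.28-fold, and Rrp12, an export factor, 2.11-fold. For the large subunit, Bop1 had 2521, 2136 and 2191 in the VavCre libraries, against 865, 976 and 929 in the controls (log2 change 1.29, SE 0.09, adjusted p = 3.28e-07), and Nop2 and Noc2l rose 2.02-fold and 2.05-fold. RNA polymerase I and snoRNP genes did not move as 1 group, with 11 of 26 higher and 6 lower at a median of 0.06. Those that rose included Polr1a, the largest subunit, with 1420, 1249 and 1528 in the VavCre libraries, against 622, 651 and 681 in the controls (log2 change 1.08, adjusted p = 2.87e-06), Tcof1, which recruits the polymerase, 2.16-fold higher, and Rrn3, its initiation factor, 1.96-fold higher. Those that fell included Ncl, nucleolin, which was chosen after its values were seen and had 3240, 9323 and 5737 in the VavCre libraries, against 14444, 12164 and 11936 in the controls (log2 change -1.20, adjusted p = 0.00276). Of the assembly factors, 27 of 39 and 26 of 44 rose without VavCre replicate 1.

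**Figure D3:**
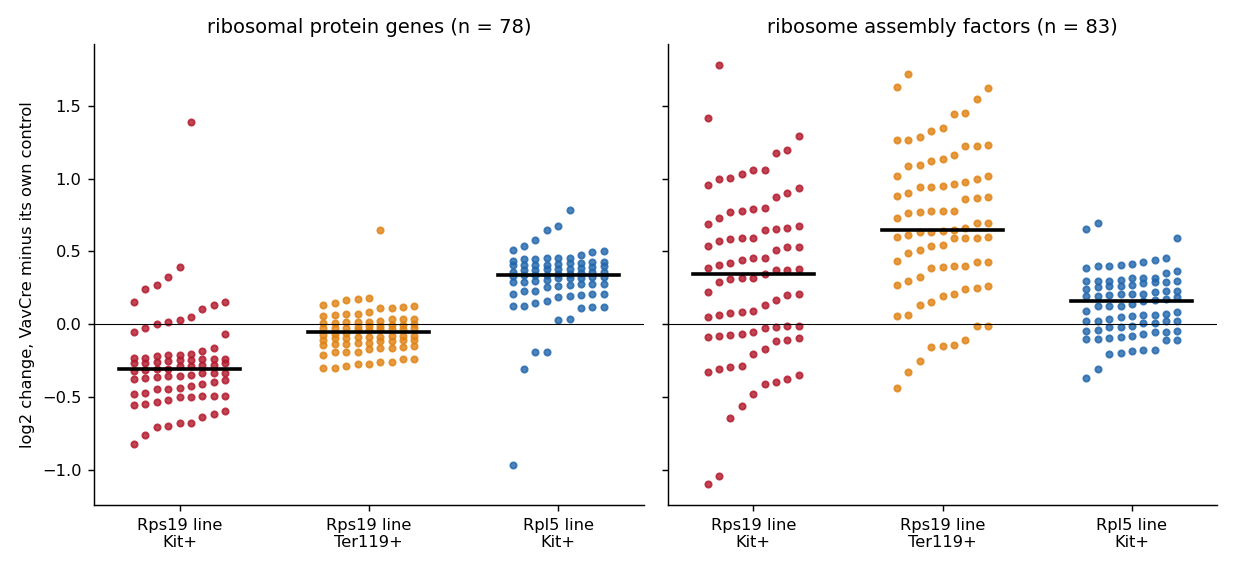
Log2 changes of 78 ribosomal protein genes and 83 assembly factors, each gene a point, in VavCre Rps19flox/+ against Rps19flox/+ Kit+ cells, VavCre Rpl5flox/+ against Rpl5flox/+ Kit+ cells and VavCre Rps19flox/+ against Rps19flox/+ Ter119+ cells, all from cytoplasm. Most ribosomal protein genes lie below 0 in the Rps19 Kit+ comparison and above 0 in the Rpl5 one.

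Translation factors did not move as 1 group: of 36 tested, 13 rose and 8 fell, with a median of -0.002, and 12 fell without VavCre replicate 2. Those that rose included Eef2, the elongation factor that moves the ribosome along, which had 71820, 57599 and 58182 in the VavCre libraries, against 36527, 40414 and 37848 in the controls (log2 change 0.70, SE 0.10, adjusted p = 9.21e-05), the largest gain in mean count among the called genes. Subunits of initiation factor 3 also rose, Eif3b 1.68-fold and Eif3l 1.85-fold, as did the scaffold Eif4g1, with 9970, 8000 and 9848 in the VavCre libraries, against 5061, 4942 and 5149 in the controls (log2 change 0.87, adjusted p = 2.46e-05). Eif1, which governs choice of the start codon, fell, with 8962, 8407 and 9022 in the VavCre libraries, against 13431, 11614 and 12854 in the controls (log2 change -0.52, adjusted p = 0.000327). In a list of the integrated stress response, 10 of 20 rose and 4 fell (median 0.249). Its transcription factor Atf4 fell, with 4678, 3937 and 4219 in the VavCre libraries, against 7111, 5860 and 6604 in the controls (log2 change -0.61, adjusted p = 0.000128), while its target Asns, asparagine synthetase, rose, with 6377, 5991 and 6180 in the VavCre libraries, against 3746, 4231 and 4040 in the controls (log2 change 0.63, adjusted p = 0.000135), as did the amino acid transporters Slc7a1 and Slc7a5, by 0.59 and 0.64. In Ter119+ cells of the same genotypes the list ran the other way, with 2 of 23 higher and 16 lower, and Asns differed by -1.19 there (difference between the cell types 1.81, adjusted p = 0.0014). In a list of mTOR and growth signalling genes, not all of them restraints of mTORC1, 4 of 14 tested genes fell and 6 rose. Besides Ddit4 and Sesn2 these included Tsc2, the GTPase activator of the TSC complex, which had 1432, 1200 and 1377 in the VavCre libraries, against 474, 486 and 462 in the controls (log2 change 1.46, SE 0.10, adjusted p = 3.28e-07), and Castor1, the arginine sensor, which rose 3.06-fold. Of 17 chaperones and targets of the unfolded protein response, 2 rose and 4 fell, and Hsp90b1 had 552, 1651 and 989.7 in the VavCre libraries, against 3501, 2940 and 3165 in the controls (log2 change -1.71, adjusted p = 0.000273) with an uneven VavCre group. Without VavCre replicate 3, 9 of the 17 fell.

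Glycolysis rose as a list, with 17 of 21 tested genes higher and 1 lower, at a median of 0.521. Pkm, the pyruvate kinase of proliferating cells, had 9160, 8662 and 8987 in the VavCre libraries, against 3442, 3483 and 3432 in the controls (log2 change 1.37, SE 0.09, adjusted p = 2.55e-07), and Eno1, enolase, had 19035, 16753 and 17355 in the VavCre libraries, against 7675, 8132 and 7833 in the controls (log2 change 1.17, SE 0.10, adjusted p = 9.55e-07). Gapdh, Ldha and Pgam1 rose by 0.53, 0.52 and 0.85, Slc2a3, a glucose transporter, by 0.71, and Slc16a3, which exports lactate, by 0.86. Pklr, the pyruvate kinase of red cells, also rose, with 17366, 13744 and 15215 in the VavCre libraries, against 9519, 9641 and 9212 in the controls (log2 change 0.70, adjusted p = 0.000846), while in the Rpl5 line it differed by -0.94 (adjusted p = 0.000172). Nucleotide synthesis rose in 12 of 25 genes and fell in 4. Cad, which starts pyrimidine synthesis, had 6705, 5464 and 6274 in the VavCre libraries, against 1322, 1771 and 1503 in the controls (log2 change 2.00, SE 0.14, adjusted p = 2.74e-07), and the purine and folate enzymes Gart and Mthfd1 rose 2.02-fold and 2.21-fold. Impdh2, which leads to guanine nucleotides, rose 1.59-fold. Cholesterol synthesis rose in 10 of 24 genes and fell in 2. Respiratory chain genes of the nucleus were split, with 6 of 30 higher and 10 lower. Of 13 genes of the mitochondrial genome, 1 fell and none rose, which was mt-Co2, with 9325, 21364 and 17596 in the VavCre libraries, against 32398, 23286 and 32048 in the controls (log2 change -0.93, adjusted p = 0.0425). Replicate 1 of the VavCre libraries was lowest for it, and without that library the change of mt-Co2 was -0.58 (adjusted p = 0.185 by limma) and no gene of the mitochondrial genome was called. The call was also lost without VavCre replicate 3, control replicate 1 or control replicate 3 (adjusted p = 0.0526, 0.118 and 0.111), while without VavCre replicate 2, 7 of the 13 genes fell.

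Cell cycle genes were lower on balance but not uniformly. Of 30 genes of G1/S and replication, 7 rose and 12 fell (median -0.156; 8 fell without control replicate 1), and of 30 of G2/M, 7 rose and 18 fell (median -0.386). Among those that fell were Top2a, the topoisomerase of chromosome segregation, with 851, 1654 and 1036 in the VavCre libraries, against 3436, 3014 and 3067 in the controls (log2 change -1.47, SE 0.17, adjusted p = 1.44e-05), Cenpf, a kinetochore protein, 4.29-fold lower, and Kif11, a spindle motor, 2.43-fold lower. Pcna, the sliding clamp of replication, had 6268, 6993 and 6898 in the VavCre libraries, against 10354, 9688 and 9720 in the controls (log2 change -0.56, adjusted p = 4.48e-05). Mcm2 and Mcm5, subunits of the replicative helicase, rose, with 8022, 6634 and 6701 in the VavCre libraries, against 3797, 4288 and 4090 in the controls for Mcm5 (log2 change 0.80, adjusted p = 1.66e-05) and a change of 0.70 for Mcm2. Bub1b, of the spindle checkpoint, rose as well, 1.53-fold. In the Rpl5 line Mcm5 changed by -0.58 and the difference between the lines was 1.39 (adjusted p = 1.11e-05). Among cyclins and inhibitors, Ccnd2, a D-type cyclin, had 1824, 2345 and 2530 in the VavCre libraries, against 844, 882 and 701 in the controls (log2 change 1.44, SE 0.12, adjusted p = 1.33e-06), and Cdkn1b, which encodes p27, was 2.01-fold lower. Myc, the growth regulator, had 2103, 2058 and 2235 in the VavCre libraries, against 1484, 1699 and 1433 in the controls (log2 change 0.47, adjusted p = 0.00477).

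Erythroid regulators were examined next. Kit itself, the marker of the sort, had 1385, 1549 and 1599 in the VavCre libraries, against 1393, 1549 and 1382 in the controls (adjusted p = 0.593), and Gata1, the central erythroid factor, had 4450, 3517 and 3683 in the VavCre libraries, against 3389, 3169 and 3601 in the controls (adjusted p = 0.167), both with overlapping groups. Klf1, which activates adult globin and membrane genes, had 5326, 4365 and 4789 in the VavCre libraries, against 3590, 4024 and 3958 in the controls, separate groups whose difference was not called (log2 change 0.32, adjusted p = 0.0669). Myb and Gata2, factors of progenitors, differed by 0.15 and 0.06, neither called. Klf1 was called without VavCre replicate 2 (0.39, adjusted p = 0.0426 by limma) and in a fit of only the 6 libraries compared (adjusted p = 0.021), and Myb without VavCre replicate 1 (0.29, adjusted p = 0.0236). Of 25 erythroid transcription factors tested, 8 rose and 3 fell, at a median of 0.116, where 27.6% of all genes rose and 26.1% fell. Zfpm1, the GATA1 partner FOG1, had 6963, 5413 and 6145 in the VavCre libraries, against 2149, 2781 and 2421 in the controls (log2 change 1.33, SE 0.17, adjusted p = 3.35e-05). Cbfa2t3 and Gfi1b, a corepressor and a DNA-binding repressor of erythroid and megakaryocytic cells, rose 2.03-fold and 1.86-fold. Runx1 and Sox6 fell, with changes of -0.46 and -0.76. Of 15 genes of erythropoietin signalling, 9 rose and 1 fell (median 0.513). Podxl, a sialomucin known as an erythropoietin target, had 5137, 4530 and 5246 in the VavCre libraries, against 1433, 1423 and 1146 in the controls (log2 change 1.89, SE 0.17, adjusted p = 1.99e-06), and the STAT5 target Cish and the hormone Erfe, which suppresses hepcidin, rose 3.19-fold and 3.57-fold. The kinase Jak2 fell, with 116, 276 and 156 in the VavCre libraries, against 445, 479.9 and 378 in the controls (log2 change -1.26, adjusted p = 0.000445).

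Heme enzymes were divided, with 3 of 19 higher and 5 lower, or 3 lower without VavCre replicate 2, VavCre replicate 3 or control replicate 1. Cpox, coproporphyrinogen oxidase, had 17719, 15453 and 17838 in the VavCre libraries, against 10532, 10038 and 9197 in the controls (log2 change 0.78, SE 0.12, adjusted p = 0.000102), and Fech, which inserts iron into the ring, had 7433, 6023 and 6671 in the VavCre libraries, against 3898, 3635 and 3316 in the controls (log2 change 0.89, SE 0.11, adjusted p = 3.17e-05). Alas1, the housekeeping form of the first enzyme, fell 1.59-fold. Iron genes were divided too, with 6 of 18 higher and 4 lower. Tfrc, the transferrin receptor, had 1543, 2816 and 3335 in the VavCre libraries, against 7334, 6497 and 9169 in the controls (log2 change -1.63, SE 0.24, adjusted p = 9.01e-05), while Tfr2, the second receptor, had 1942, 1480 and 1506 in the VavCre libraries, against 603, 652 and 760.4 in the controls (log2 change 1.27, SE 0.15, adjusted p = 1.5e-05). Both were separate between the groups, in opposite directions. Aco1, an iron-responsive RNA-binding protein, rose by 0.62, and Ireb2, its relative, fell by 1.23 on the log2 scale with uneven VavCre values of 109, 339 and 202. Fth1, the heavy chain of ferritin, had 28340, 24544 and 25354 in the VavCre libraries, against 18315, 19314 and 18560 in the controls (log2 change 0.47, adjusted p = 0.00301).

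Of 8 globin genes tested, 1 rose and 2 fell. The adult globins Hba-a1 and Hbb-bs had 37092, 22046 and 23826 in the VavCre libraries, against 85088, 48606 and 50354 in the controls for Hba-a1 (log2 change -1.14, adjusted p = 0.000616) and 45320, 23370 and 26222 in the VavCre libraries, against 89981, 47812 and 51266 in the controls for Hbb-bs, 1.99-fold lower (adjusted p = 0.00438). Their near-identical partners Hba-a2 and Hbb-bt differed by -0.53 and -0.56, not called, and reads may be split between the copies. Hbb-y, the embryonic epsilon-y globin, rose, with 144, 228 and 102 in the VavCre libraries, against 44.9, 57.8 and 58.6 in the controls (log2 change 1.28, adjusted p = 0.00765). Without VavCre replicate 1, the highest of its group for adult globins, 5 of the 8 fell, Hba-a2 and Hbb-bt among them (-0.78 and -0.82, adjusted p = 0.00787 and 0.00741 by limma). Hbb-bt was called also without control replicate 2 (-0.74, adjusted p = 0.0305), and Hba-a2 without control replicate 3 (-0.70, adjusted p = 0.0379). Of 35 genes of the red cell membrane and late maturation, 8 rose and 6 fell. Mpp1, a palmitoylated membrane scaffold, had 2065, 1910 and 2159 in the VavCre libraries, against 795, 709.7 and 677 in the controls (log2 change 1.47, SE 0.08, adjusted p = 6.36e-08), and Ank1, which ties the skeleton to the membrane, rose 1.69-fold. Aqp1, the water channel, was 2.07-fold lower. Slc4a1, the anion exchanger band 3, which was chosen after its values were seen, had 8778, 4505 and 5267 in the VavCre libraries, against 9376, 6515 and 5825 in the controls (adjusted p = 0.34). In the Rpl5 line Slc4a1 differed by -3.04 and the line difference was 2.78 (adjusted p = 2.41e-05).

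The mRNAs of stem cells and uncommitted progenitors were mostly lower. Of 21 tested genes of stem cells, 13 fell and none rose (median -0.607), and of 25 of multipotent and lymphomyeloid progenitors, 17 fell and none rose (median -1.01). Because each library is RNA of a mixed population, fewer cells of a type and less RNA per cell cannot be told apart in any of the lineage results. Flt3, the receptor of lymphomyeloid progenitors, had 13.4, 29.3 and 14.5 in the VavCre libraries, against 129, 122 and 123 in the controls (log2 change -2.14, SE 0.20, adjusted p = 2.42e-06). Cd34, a sialomucin of progenitors, had 181, 256 and 171 in the VavCre libraries, against 558, 719 and 678 in the controls (log2 change -1.63, SE 0.16, adjusted p = 4.37e-06). Satb1, a chromatin organiser of lymphoid priming, was 9.49-fold lower, Cd27 4.61-fold, Cd53 5.20-fold and Ptprc, which encodes CD45, 6.09-fold. The stem cell genes Cd93, Erg and Meis1 were 3.88, 3.25 and 2.48-fold lower. Others of the stem cell list hardly moved: Slamf1, Prdm16, Esam and Gata2 changed by 0.06, 0.16, 0.16 and 0.06, none of them called. The 4 of 5 HOX genes that were called also fell, from low levels, with Hoxa9 at 8.77, 11.4 and 5.50 in the VavCre libraries, against 27.8, 16.2 and 18.9 in the controls (log2 change -0.72, adjusted p = 0.0149). Hoxa9 was not called without VavCre replicate 3 or control replicate 1 (adjusted p = 0.064 and 0.0726), and 2 of the 5 fell without VavCre replicate 3.

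Genes of neutrophil granules and of the granulocyte lineage fell almost without exception, and none was called higher. In the list of primary granule and granulocyte precursor genes, 19 of 20 tested fell (median -1.453). In the list of secondary granule and other neutrophil genes, 19 of 20 fell (median -1.968). Elane, neutrophil elastase, had 465, 366 and 193 in the VavCre libraries, against 1572, 1546 and 1171 in the controls (log2 change -2.09, SE 0.26, adjusted p = 2.52e-05), and Prtn3, proteinase 3, had 1011, 1105 and 468 in the VavCre libraries, against 3686, 3596 and 2941 in the controls (log2 change -2.05, SE 0.29, adjusted p = 7.45e-05). Mpo, myeloperoxidase, which was chosen after its values were seen, had 4222, 4786 and 2287 in the VavCre libraries, against 9726, 11468 and 8665 in the controls (log2 change -1.46, adjusted p = 0.00018). VavCre replicate 3 was the lowest library for all 3 genes, and no VavCre library reached a control. Camp, the cathelicidin of secondary granules, had 159, 71.7 and 45.7 in the VavCre libraries, against 1405, 706 and 585 in the controls (log2 change -3.14, SE 0.37, adjusted p = 1.66e-05), a 9.77-fold lower mean. S100a9, the calprotectin subunit, had 621, 452 and 213 in the VavCre libraries, against 4531, 2579 and 1996 in the controls (log2 change -2.82, SE 0.38, adjusted p = 5.35e-05), and Olfm4, of a neutrophil subset, was 10.7-fold lower. Anxa1, Ncf1 and Lyz2 were 8.49, 4.31 and 4.38-fold lower. The cystatin genes Cstdc4, Cstdc5 and Stfa1, near-identical neighbours among which reads may be split, were 7.77, 6.73 and 6.42-fold lower. The 26 genes of the secondary granule and neutrophil list that are in the table summed to 1346 to 3101 normalised counts in the VavCre libraries, against 9437 to 17402 in the controls.

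Transcription factors of the myeloid branches were lower too, of which Cebpa, Cebpe and Gfi1 are already counted in the primary granule and precursor list. Spi1, which encodes PU.1, had 126, 165 and 91.7 in the VavCre libraries, against 361, 393 and 302 in the controls (log2 change -1.39, SE 0.18, adjusted p = 3.86e-05). Cebpa, needed for granulocyte commitment, had 94.0, 109 and 64.2 in the VavCre libraries, against 190.5, 171 and 155 in the controls (log2 change -0.87, adjusted p = 0.00218), and Cebpe, of granule formation, 39.7, 41.0 and 20.3 in the VavCre libraries, against 130.01, 110.03 and 106 in the controls (log2 change -1.48, adjusted p = 0.000144). Irf8, which directs monocytes, had 36.0, 59.0 and 23.7 in the VavCre libraries, against 227, 246 and 223 in the controls (log2 change -2.26, SE 0.20, adjusted p = 2.08e-06), and Gfi1, its counterpart in granulocytes, was 2.73-fold lower. Of 24 monocyte genes tested, 20 fell and 1 rose (median -1.713). Ms4a6c was 10.7-fold lower, Mpeg1, a pore-forming protein of phagocytes, 5.97-fold, Fcer1g, the shared Fc receptor chain, 6.56-fold, and F13a1 7.81-fold. Ly86, a partner of toll-like receptors, had 2.88, 2.50 and 3.47 in the VavCre libraries, against 54.7, 64.0 and 61.1 in the controls (log2 change -2.41, adjusted p = 1.2e-06). Csf1r, the receptor of macrophage colony-stimulating factor, had 67.0, 59.7 and 44.3 in the VavCre libraries, against 189.5, 181 and 214 in the controls (log2 change -1.57, adjusted p = 1.6e-05). Of 20 genes of mast cells, basophils and eosinophils, 13 fell and 1 rose (median -1.283). Prg2, the major basic protein of eosinophils, had 26.8, 36.8 and 37.0 in the VavCre libraries, against 604, 427 and 503 in the controls (log2 change -3.46, SE 0.18, adjusted p = 3.46e-08), a 15.2-fold lower mean with little spread within the groups. Epx, eosinophil peroxidase, had 2.88, 6.74 and 8.10 in the VavCre libraries, against 58.0, 48.9 and 58.2 in the controls, and the ribonucleases Ear1, Ear2 and Ear6, a family of similar genes, fell by 2.42, 1.83 and 2.35 on the log2 scale.

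**Figure D4:**
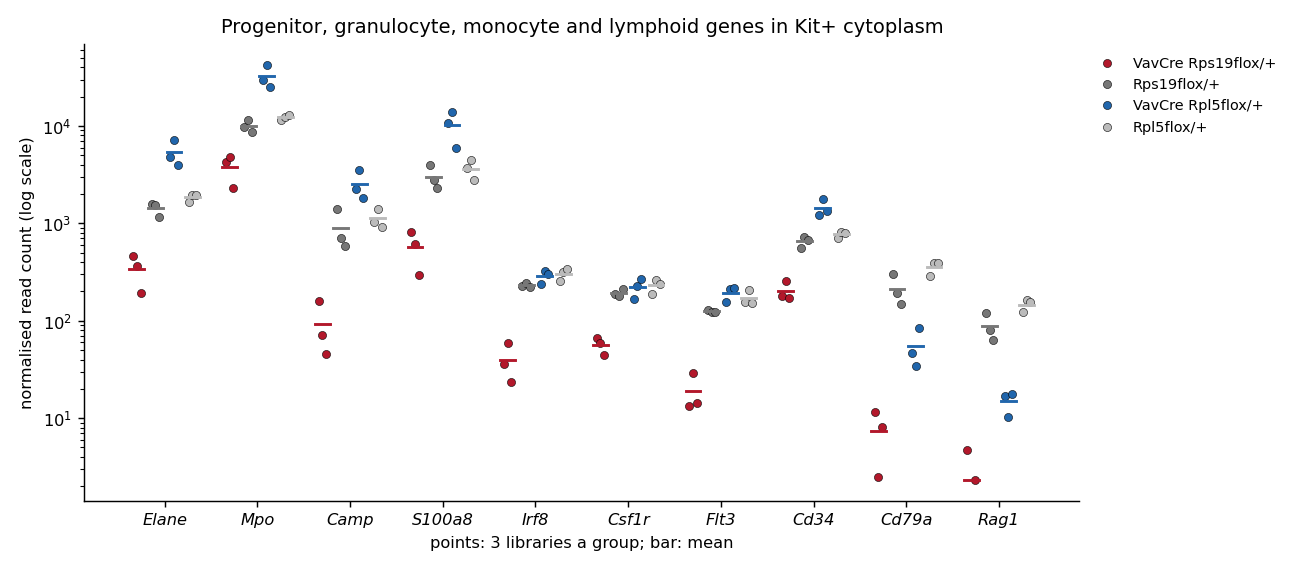
Normalised counts (log scale) of lineage genes in each Kit+ cytoplasm library, in the order VavCre Rps19flox/+, Rps19flox/+, VavCre Rpl5flox/+ and Rpl5flox/+, each point 1 library. Elane lies between 193 and 465 in VavCre Rps19flox/+ libraries, against 1171 to 1572 in Rps19flox/+ libraries, while VavCre Rpl5flox/+ libraries lie above their controls. A VavCre Rps19flox/+ library with no Rag1 reads is not drawn.

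B-lymphoid genes had the lowest median of the 57 lists, with 18 of 19 tested lower and 1 higher, at a median of -2.502. Cd79a had 11.6, 2.50 and 8.10 in the VavCre libraries, against 300.3, 192 and 150.1 in the controls (log2 change -3.55, SE 0.29, adjusted p = 1.06e-06). Igll1, a chain of the surrogate light chain of pro-B cells, had 9.18, 1.35 and 3.47 in the VavCre libraries, against 290.5, 133 and 115 in the controls (log2 change -3.54, SE 0.30, adjusted p = 1.24e-06), and Vpreb3 had 1.78, 1.16 and 1.16 in the VavCre libraries, against 136, 72.2 and 64.6 in the controls (log2 change -3.13, adjusted p = 2.82e-07). Rag1, the recombinase of antigen receptor genes, had 4.66, 0 and 2.31 in the VavCre libraries, against 121, 80.9 and 63.0 in the controls (log2 change -3.09, adjusted p = 1.86e-06). The VavCre libraries thus held few reads of these genes or none, and among the controls replicate 1 was the highest. The regulators Pax5 and Ebf1, which commit cells to the B lineage, had 1.78, 1.93 and 0.289 in the VavCre libraries, against 135, 65.8 and 31.4 in the controls for Pax5 (log2 change -2.86, adjusted p = 2.3e-05) and 0.548, 0 and 1.74 in the VavCre libraries, against 83.5, 52.9 and 29.8 in the controls for Ebf1 (log2 change -2.76, adjusted p = 1.08e-05). Pou2af1, a coactivator of immunoglobulin genes, had 3.01, 4.24 and 2.89 in the VavCre libraries, against 177, 85.8 and 73.6 in the controls, and Mzb1, a chaperone of immunoglobulin secretion, had 10.8, 4.24 and 6.08 in the VavCre libraries, against 271, 129 and 94.7 in the controls. Cd79b, the partner of Cd79a, kept more reads, with 16.7, 17.7 and 14.8 in the VavCre libraries, against 198, 143 and 125 in the controls (log2 change -2.50, adjusted p = 3.01e-07). Of 8 genes of T, NK and innate lymphoid cells, 5 fell and none rose (median -0.759).

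Megakaryocyte genes were mostly lower, with 15 of 21 tested lower and 3 higher (median -0.869). Pf4, platelet factor 4, had 79.2, 86.1 and 55.8 in the VavCre libraries, against 243, 228 and 292 in the controls (log2 change -1.62, SE 0.16, adjusted p = 4.37e-06), Fli1, an ETS factor of the lineage, was 3.09-fold lower, and Plek and Thbs1 were 3.96 and 2.18-fold lower. Gp5, of the von Willebrand factor receptor, rose instead, with 276, 215 and 195 in the VavCre libraries, against 79.6, 94.5 and 99.5 in the controls (log2 change 1.19, SE 0.16, adjusted p = 4.54e-05), and it rose also in the Rpl5 line, by 1.32. Cytokine and chemokine receptors fell in 17 of 30 genes and rose in 1. Cxcr4, which holds cells at sources of CXCL12, had 73.4, 78.0 and 46.9 in the VavCre libraries, against 507, 410.3 and 366 in the controls (log2 change -2.47, SE 0.19, adjusted p = 6.08e-07), and Il6ra and Ccr2 were 4.17 and 10.5-fold lower. Of 25 adhesion and surface genes, 14 fell and 3 rose. The tetraspanins were split, with Cd82 at 491, 385 and 362 in the VavCre libraries, against 1333, 1127 and 1093 in the controls (log2 change -1.49, adjusted p = 5.57e-07), Cd63 3.73-fold lower and Cd9 2.76-fold lower, but Cd81 at 3623, 2816 and 2921 in the VavCre libraries, against 1341, 1307 and 1431 in the controls (log2 change 1.18, adjusted p = 4.19e-06). Itgam, which encodes CD11b, was 4.13-fold lower. Interferon-response genes fell in 10 of 22 and rose in 5. The immunoproteasome genes Psmb8 and Psmb9 were 4.69 and 4.59-fold lower and Irf1 3.73-fold, while Bst2, a tether of virus particles, rose 2.28-fold.

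**Figure D5:**
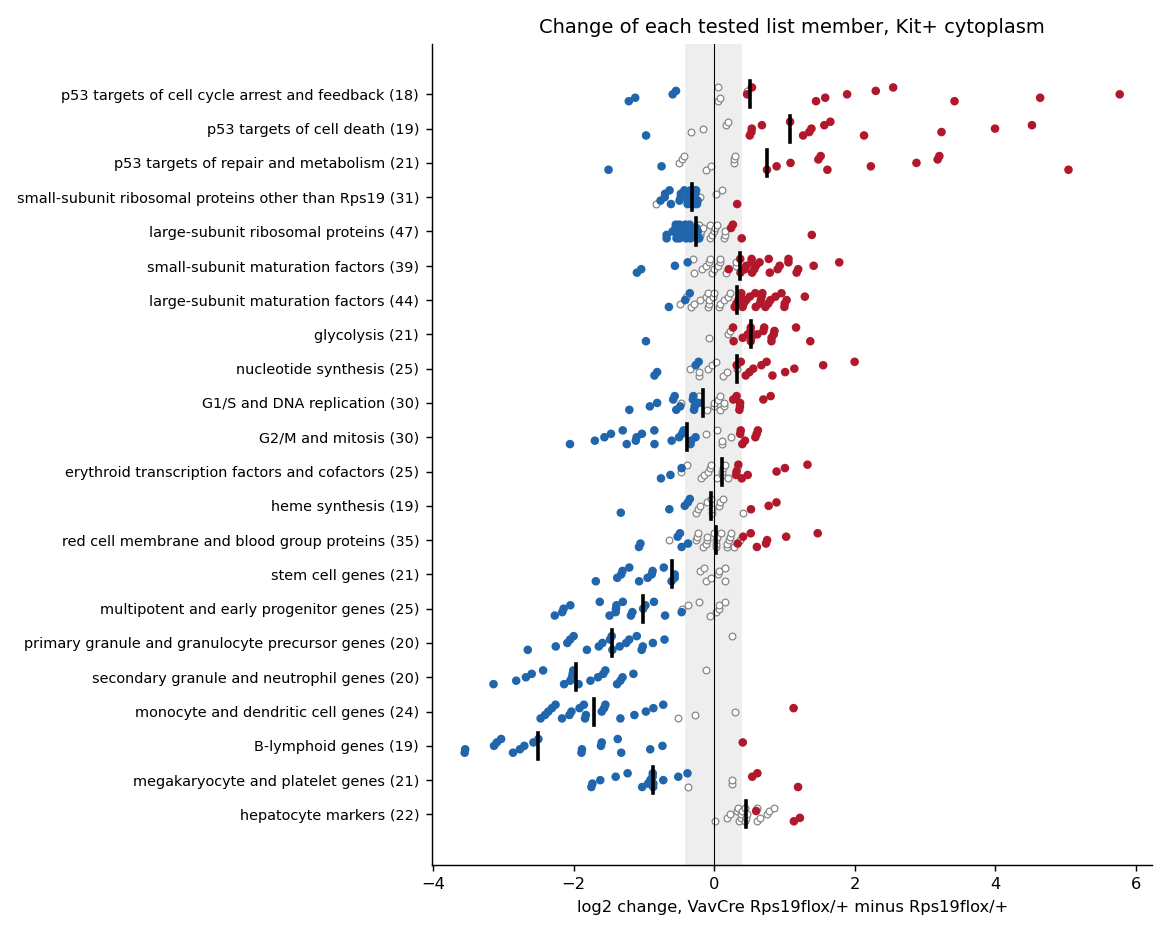
Log2 change in VavCre Rps19flox/+ against Rps19flox/+ Kit+ cytoplasm for the members of gene lists, 1 row per list, each gene a point. Filled points are called genes (red higher, blue lower), open points are not called, the black bar is the median of the list, and the grey band is the interquartile range of all genes tested, -0.408 to 0.378. The medians of the B-lymphoid, granule and monocyte lists lie left of the band and those of the p53 target lists right of it, while single members lie elsewhere.

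Markers of liver cells that are not blood were set beside these results. Of 22 hepatocyte genes tested, 3 were called and all 3 rose, with a median of 0.447. The summed counts of the 24 list genes in the table were 9892 to 14202 in the VavCre libraries, against 4491 to 11448 in the controls, of which replicate 2 was the lowest, and the median was 0.063 without it. Ahsg, fetuin A, had 559, 424 and 331 in the VavCre libraries, against 254, 110.0 and 191 in the controls (log2 change 1.22, adjusted p = 0.00794), and Alb, albumin, had 3515, 3730 and 2808 in the VavCre libraries, against 2465, 1082 and 2663 in the controls (adjusted p = 0.103). Macrophage genes had 1 higher and 1 lower of 14, with summed counts of the 18 in the table of 2729 to 3688 in the VavCre libraries, against 1617 to 2774 in the controls. Endothelial and stromal genes had 3 higher and 1 lower of 16, with summed counts of the 22 in the table of 584 to 948 in the VavCre libraries, against 527 to 638 in the controls. Without control replicate 2, none of the endothelial and stromal genes rose. Their part in the other results was not tested.

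The largest shifts in summed reads came from very abundant genes, which outrank others on counts alone. After Eef2, the gains were led by Rplp0, Rps2, Gapdh, Eno1 and Rack1, and by Fth1, Cpox, Ldha and Pklr. The losses were led by Hba-a1 and Hbb-bs and included Rps12, mt-Co2, Ptma, Rps3a1, Gpx1, Hnrnpa2b1 and Rpl13a. Ptma, prothymosin alpha, had 41392, 46733 and 45951 in the VavCre libraries, against 57292, 56836 and 55995 in the controls (log2 change -0.35, adjusted p = 0.00484). Gpx1, a selenoprotein that removes peroxides and is abundant in erythroid cells, had 16998, 13607 and 13483 in the VavCre libraries, against 26853, 22427 and 24608 in the controls (log2 change -0.75, adjusted p = 6.49e-05). Hnrnpa2b1, an RNA-binding protein of splicing and transport, had 10589, 13775 and 14270 in the VavCre libraries, against 24151, 21076 and 20519 in the controls (log2 change -0.77, adjusted p = 0.000103).

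VavCre Rpl5flox/+ Kit+ cells, set against their own Rpl5flox/+ controls, showed where the Rps19 change differed. In that line 4055 genes were called (37.2%), of which 2267 rose (20.8%) and 1788 fell (16.4%). The difference between the 2 changes was itself called for 5258 of 10908 genes (48.2%), 2730 of them positive (25.0%) and 2528 negative (23.2%). The lines had 608 higher genes in common, 20.2% of those higher with Rps19 and 26.8% of those higher with Rpl5. The 448 lower genes in common were 15.7% of those lower with Rps19 and 25.1% of those lower with Rpl5. Of all genes tested, 20.8% were higher and 16.4% lower with Rpl5, and 27.6% were higher and 26.1% lower with Rps19. Shared calls were thus no more common than these shares over all genes. Opposite calls were about as many, with 536 genes higher with Rps19 and lower with Rpl5 and 692 the other way round. Between the control groups of the lines, 0 genes were called by limma with Benjamini-Hochberg adjustment, with 331 of 10908 at an unadjusted p under 0.05 and a lowest adjusted p of 0.7011. The p53 lists were alike in direction, with 10, 17 and 13 genes higher in the Rpl5 line for arrest, death and repair, and Cdkn1a rose by 4.99 there, 0.78 less than with Rps19 (adjusted p = 0.00443). Ribosomal protein lists ran the opposite way, with 23 of 31 small-subunit and 31 of 47 large-subunit genes higher and 0 and 2 lower. For Rps12 the change was 0.54 with Rpl5 and the difference -1.24 (adjusted p = 6.08e-05). Rpl10, which rose with Rps19, differed by -0.19 with Rpl5 (difference 1.58, adjusted p = 3.44e-05).

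The granule lists ran in opposite directions in the lines. In the Rpl5 line 19 of 20 primary granule and precursor genes and 17 of 20 secondary granule and neutrophil genes rose and none fell. Elane had 4841, 7219 and 3990 in VavCre Rpl5flox/+ libraries, against 1677, 1942 and 1976 in Rpl5flox/+ libraries, and the difference between the lines was -3.56 (adjusted p = 1.42e-05). Spi1 and Cebpa, which fell with Rps19, rose with Rpl5 by 0.95 and 1.30. Monocyte genes had 6 higher and 4 lower of 24 with Rpl5, and Irf8 differed by -0.08 (difference -2.18, adjusted p = 6.58e-05). Progenitor genes rose in 16 of 25 and fell in none with Rpl5, where Cd34 changed by 0.88 (difference -2.51, adjusted p = 7.42e-06). B-lymphoid genes fell in both lines, in 17 of 19 with Rpl5 at a median of -1.466, and Cd79a fell by 2.47 on the log2 scale there. Red cell membrane and heme genes fell with Rpl5, in 29 of 35 and 14 of 19, against 6 and 5 with Rps19. Fech changed by -1.10 with Rpl5 (difference 1.99, adjusted p = 4.22e-06), Cpox by -0.59 (difference 1.36, adjusted p = 3.27e-05) and Zfpm1 by -0.84 (difference 2.17, adjusted p = 2.17e-05). Hepatocyte markers were higher in 21 of 22 in the Rpl5 line, which moves with its other changes and whose part in them was not tested.

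Ter119+ cells are further along the erythroid path, and the change with Rps19 there was compared over 24 cytoplasm libraries. In Ter119+ cytoplasm 4174 of 11018 genes were called (37.9%), of which 18.3% were higher and 19.6% lower, and the Kit+ change minus the Ter119+ change was called for 1353 (12.3%), 920 positive (8.35%) and 433 negative (3.93%). This count fell to 723 without VavCre Kit+ replicate 1, 804 without control Kit+ replicate 1 and 819 without VavCre Ter119+ replicate 3. The cell types shared 1314 higher genes, 43.8% of those higher in Kit+ cells and 66.0% of those higher in Ter119+ cells, and 1183 lower genes, 42.1% of those lower in Kit+ cells and 56.6% of those lower in Ter119+ cells. Another 124 genes were higher in Kit+ and lower in Ter119+ cells, and 42 the other way round. Targets of p53 rose there too, in 7 of 18 for arrest, 12 of 19 for death and 12 of 22 for repair, and Cdkn1a had 11378, 10944 and 11034 in VavCre Ter119+ libraries, against 109, 103 and 146 in Ter119+ controls (log2 change 6.39, adjusted p = 9.44e-20). Bbc3 was an exception, at -0.27 in Ter119+ cells, with a difference of 1.92 (adjusted p = 0.000723). No ribosomal protein of the small subunit and 1 each way of the large subunit was called in Ter119+ cells, while assembly factors rose in 27 and 30 genes. Kit and Myb, genes of early cells, rose in Ter119+ cells by 2.86 and 2.01 and were not called in Kit+ cells (differences -2.80 and -1.86, adjusted p = 0.00462 and 0.000235). Cell cycle genes fell there without the exceptions seen in Kit+ cells, in 21 G1/S and 25 G2/M genes with none higher, and for Mcm5 the difference was 0.92 (adjusted p = 0.00356). Secondary granule and neutrophil genes fell in Ter119+ cells too, in 19 of 21, and monocyte genes in 21 of 25. Camp had 138, 118 and 54.3 in VavCre Ter119+ libraries, against 1712, 643 and 1402 in their controls. B-lymphoid genes fell in Ter119+ cells in 10 of 18 and macrophage genes in 14 of 18, with none higher in either list.

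The polysome libraries of the same Kit+ pools are given as values without a test, since the controls held only 1.01 to 7.17 M reads there. The groups also differed in make-up: mitochondrial genes took 1.334% to 2.248% of reads in VavCre polysomes, against 0.208% to 0.392% in control polysomes. The most abundant gene took 0.921% to 4.506% of reads in VavCre polysomes, against 10.328% to 54.874% in control polysomes, where it was Lars2 in each. Their part in the values below was not tested. Cdkn1a had 2874, 2653 and 4207 normalised counts in VavCre Kit+ polysomes, against 0, 65.1 and 146 in control polysomes, and Phlda3 had 882, 796 and 839, against 0, 30.6 and 132. Camp had 312, 216 and 84.4 in VavCre polysomes, against 4299, 2702 and 2753 in control polysomes. For these 3 genes the groups did not overlap and the side was that of the cytoplasm. Rps12 had 73548, 68526 and 33759 in VavCre polysomes, against 48477, 98016 and 28400 in control polysomes, and these groups overlapped. Eef2 had 34636, 30714 and 43681 in VavCre polysomes, against 16159, 12904 and 22604 in control polysomes, which did not overlap and kept the side of the cytoplasm.

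Medians of the change differed little by chromosome or promoter composition. The median by chromosome ran between -0.256 for chromosome 13 and 0.137 for chromosome 8. In 5 equal groups by promoter GC content, known for 80.62% of genes, the medians were -0.087, 0.071, 0.06, 0.05 and -0.042, lowest to highest GC, with a Spearman rho of 0.03 across genes, which are not independent. With the span of the gene the rho was -0.054.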

How the data were processed

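The authors deposited 1 table for the whole series, 13449 genes by 45 libraries, of expression values on a variance-stabilised log2 scale whose step back to normalised counts gave whole reads for 100.0% of values (tolerance 1e-06). Reads were set against mm10, per the submitters' processing notes, while the sources used here give no aligner or counter. Per the labels' protocols the libraries were poly(A)-selected paired-end RNA. The 12 Kit+ cytoplasm libraries, 3 for each of 4 genotypes, were fitted together on the deposited log2 values in limma (version 3.58.1, R version 4.3.3) by linear models with moderated variances that follow the mean, for genes with a mean normalised count of at least 10. The difference between cell types was fitted on 24 cytoplasm libraries. Tests were two-sided, and p-values were adjusted by Benjamini and Hochberg over all genes tested, with calls at 0.05. A gene said to have risen or fallen passed this threshold. Normalised counts are recovered reads over size factors of the median of ratios.

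The members and lists were chosen with earlier results of these data known. There were 57 gene lists, and 1273 of their 1356 genes are in the table. Genes are named if they belong to a fixed set of lineage and pathway genes, are among the 15 largest changes or 10 largest count differences in each direction, or among the 6 lowest adjusted p of a list (all members of lists of up to 12), or the 6 largest of each difference test. The first 2 of these rules on size hold for called genes whose groups do not overlap, and the changes also need a group mean of 50 or more. Positions and promoters are RefSeq's for GRCm38.p6, which held 13243 of the symbols. Many of the genes given with values overlap another gene there, among them Tsr2, Ccl3, Bop1, Tsc2, Pklr, Cad, Mpp1 and G6pdx, and whether strand was used in counting is not stated. Data were also simulated for 10844 genes, of which 61, 73 and 66 were changed by 0.5, 1 and 2 on the log2 scale. Of these, limma called 39.34%, 87.67% and 100.0%. All changed genes had mean counts of at least 50, so the rates do not cover genes with fewer reads. Far fewer genes were changed than were called in the real data, where the rates may differ. Alternatives changed the filter, scale, scaling, model, trend, replicate block, libraries fitted and replicates left out. A few genes chosen this way were left out of the text.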

Additional observations from a re-analysis of the deposited data

Results flagged for a closer look

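The values here are differences between 2 changes on the log2 scale, each called at an adjusted p under 0.05 by limma, and they are the 6 largest in each direction of each difference test. Between the lines, the Rps19 change was above the Rpl5 change by 3.87 for Chtf8, 3.27 for Gm28036, 2.64 for Ankrd52, 2.53 for Fbxo10, 2.45 for Pdpr and 2.39 for Wnk4. It was below the Rpl5 change for genes of granulocytes, by -4.25 for Camp, -4.22 for S100a9, -4.08 for Prg2, -4.06 for Cstdc5, -3.93 for Stfa1 and -3.85 for S100a8. S100a8 and S100a9 encode the subunits of calprotectin, Prg2 the major basic protein of eosinophils and Camp a cathelicidin.

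Between the cell types, the Kit+ change was above the Ter119+ change by 2.61 for Ptp4a3, 2.35 for Chtf8, 2.31 for Srcap, 2.07 for Cd5l, 1.92 for Bbc3 and 1.85 for Slc7a7. It was below the Ter119+ change by -2.83 for Derpc, -2.75 for Zfp969, -2.43 for Vpreb3, -2.35 for Igll1, -2.18 for Rag1 and -2.16 for Lhfpl2. Igll1, Vpreb3 and Rag1 belong to early B cells, Bbc3 encodes the death protein PUMA and Cd5l is a secreted protein of macrophages. The B-lymphoid list fell in both cell types, at medians of -2.502 in Kit+ and -1.051 in Ter119+ cells. Macrophage genes had a median of -1.248 in Ter119+ cells. The call of Cd5l in Kit+ cells was lost without VavCre replicate 1 or 2 or control replicate 2 or 3 (adjusted p = 0.0544 to 0.134 by limma). Chtf8 and Derpc overlap each other in the annotation, Fbxo10 overlaps Polr1e and Slc7a7 overlaps Oxa1l, so their values are uncertain, and Gm28036 and Zfp969 have no position there.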

How the results depend on the processing

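The counts of genes called higher and lower with Rps19 (3012 and 2847) were 2819 to 3058 and 2352 to 2947 under the alternatives that kept all libraries of a group, and 2552 to 2915 and 2257 to 2872 with 1 library left out. No called gene changed direction under these settings, and Rps19 ran between -0.56 and -0.40. The difference between the lines gave 4496 to 5463 called genes with 1 library left out, against 5258. The difference between the cell types gave 723 to 1534, against 1353, with the lowest counts without VavCre Kit+ replicate 1 (723), control Kit+ replicate 1 (804) and VavCre Ter119+ replicate 3 (819), and its other alternatives gave 1197 to 1445. The controls of the lines gave 0 called genes by limma throughout. Among 390 single-gene results, 113 of 5424 values under alternatives changed the call, 61 lost and 52 gained, in 34 genes. Of 24 differences, 36 of 450 values lost the call, in 5 genes, among them Igll1 and Rag1 between cell types and Gm28036 between lines, which were not called with voom on recovered reads. Replicate numbers are shared across groups, but the deviations of same-numbered libraries correlated at only 0.011, -0.038 and -0.013, so they do not pair the samples. With the number as a replicate block 3058 genes were higher and 2922 lower, and the differences gave 5361 and 1436 genes. Klf1 (adjusted p = 0.0378), Hba-a2 (0.0456) and Hbb-bt (0.0122) were called with the block, and Mcl1 (0.0532) was not. Genes with few reads set the limit of depth.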

Other observations

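A further list joined immediate-early genes, which respond within minutes to growth and stress signals, with heat shock genes. Of its 24 tested members, 12 fell and 2 rose, at a median of -0.452, against 0.011 for all genes tested (26.1% of which fell). Klf6, a zinc finger factor, had 13.6, 36.8 and 34.7 in the VavCre libraries, against 135, 119 and 145 in the controls (log2 change -1.87, SE 0.22, adjusted p = 1.61e-05), and Nr4a1, an orphan nuclear receptor, had 33.8, 42.2 and 41.1 in the VavCre libraries, against 115, 156 and 145 in the controls (log2 change -1.53, adjusted p = 8.38e-06). Klf2 and Klf4, of the same family as Klf6, were 5.41 and 7.98-fold lower, and Zfp36, which speeds decay of AU-rich mRNAs, was 2.27-fold lower. Inflammation genes fell in 10 of 19 and rose in 4. The chemokine Ccl3 had 8.35, 8.28 and 4.05 in the VavCre libraries, against 77.2, 61.8 and 60.2 in the controls (log2 change -2.10, adjusted p = 4.37e-06), and the NF-kB subunit gene Rel was 7.68-fold lower, while Nfkb1, another subunit, had 750.2, 746 and 725 in the VavCre libraries, against 329, 413 and 339 in the controls (log2 change 1.02, adjusted p = 3.22e-06). With a mean count of at least 50 required, 4 of 10 inflammation genes fell and 4 rose. Myeloid and lymphoid markers fell in the same libraries, and their part in these values was not tested.

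Proteasome subunits rose in 12 of 31 genes and fell in 1, at a median of 0.124, with Psmd3 at 5226, 4470 and 4510 in the VavCre libraries, against 2490, 2697 and 2592 in the controls (log2 change 0.86, adjusted p = 1.01e-05). Histone genes fell in 9 of 19 and rose in none (median -0.377), among them the variant Macroh2a1, with 1300, 1460 and 1283 in the VavCre libraries, against 2550, 2540 and 2235 in the controls (log2 change -0.85, adjusted p = 9.95e-06). Poly(A)-selected libraries hold few mRNAs of replication-dependent histones. In the DNA repair list 8 of 24 rose and 6 fell, with Fanca, of the Fanconi pathway, 2.01-fold higher, and Brca2 and Brca1, of homologous recombination, 2.44 and 2.19-fold lower. Among 18 genes of the fetal programme 6 rose and 6 fell, and Hmga2 had 51.8, 129 and 96.3 in the VavCre libraries, against 292, 334 and 308 in the controls (log2 change -1.68, adjusted p = 2.61e-05), and Lin28b was 2.15-fold lower, while Igf2bp1 rose 1.56-fold. Of 15 ubiquitin enzymes of red cell maturation, 3 rose and 2 fell (median 0.048), with Trim58 and Ube2o 2.40-fold and 2.14-fold higher and Rmnd5a and Ube2l6 1.83-fold and 1.59-fold lower. G6pdx, the first enzyme of the pentose phosphate pathway, had 1693, 1619 and 1608 in the VavCre libraries, against 766, 951 and 757 in the controls (log2 change 0.99, adjusted p = 1.33e-05). The genes given with a fold alone passed the same test.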
